A study of Mus musculus with 4 samples.

Results

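The 8 genes described here encode 7 inhibitory receptors of T cells, Pdcd1 (PD-1), Ctla4, Tigit, Lag3, Havcr2 (TIM-3), Cd160 and Btla, and Cd274, which encodes PD-L1, a ligand of PD-1. They were chosen by gene symbol, and all 8 were found among the 17039 genes of the deposited table. RNA was sequenced from splenic T cells of C57BL/6 mice, separated on magnetic columns and called CD8+ in the series title. The AAV-IL-27 group (replicates 1 and 3) had received a muscle injection of an adeno-associated virus (AAV) with the cytokine interleukin-27 (IL-27) as its cargo, and the AAV-ctrl group (replicates 1 and 3) a control virus, about a month earlier. All 4 mice had therefore received a virus. The design text counts 4 mice, so each library comes from its own animal. Promoter, capsid, vector dose, age and sex were not stated in the labels, nor was the way the magnetic labelling was used.

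Inhibitory receptors are placed on T cells after activation and dampen signals of the T cell receptor and of CD28. PD-1 recruits the phosphatase SHP-2 when bound by PD-L1 or PD-L2, CTLA-4 takes CD80 and CD86 away from CD28, and TIGIT competes with the activating receptor CD226 for CD155 (Pvr). LAG-3 binds MHC class II, TIM-3 binds galectin-9 among other ligands, and BTLA and CD160 both bind HVEM (Tnfrsf14). Naive lymphocytes already carry BTLA, whereas PD-1, LAG-3, TIGIT, CTLA-4 and TIM-3 are better known from activated, regulatory or exhausted T cells. PD-L1 is known to be induced by interferons.

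The genes lie at separate places of the genome (build GRCm38.p6, RefSeq). Pdcd1 is on chromosome 1, 94038305 to 94052553, minus strand, and Ctla4 on chromosome 1, 60909025 to 60915832, plus strand. Tigit is on chromosome 16, 43626137 to 43665125, minus strand, and Btla on chromosome 16, 45223705 to 45252895, plus strand. Lag3 is on chromosome 6, 124904359 to 124912434, minus strand, and Havcr2 on chromosome 11, 46454931 to 46481255, plus strand. Cd160 is on chromosome 3, 96798763 to 96829351, minus strand, and Cd274 on chromosome 19, 29362107 to 29388095, plus strand.

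RefSeq promoter windows (300 bases, 250 of them before a transcript start) were held for 7 of the 8 genes. These were 8 windows, since Cd160 had windows at 2 starts. The windows of Tigit, Btla and Cd274 lie inside the annotated spans of these genes, so sequence before their outermost 5′ ends was not searched. The Btla window also overlaps an annotated exon of Btla. Both motifs named here were searched on both strands. The GAS motif TTCNNNGAA, a binding pattern of STAT factors that reads the same on either strand, was found in 1 of the 8 windows, at the second Cd160 start, and in 8.30% of all 32851 windows. The interferon response pattern, GAAA and again GAAA with 2 bases of any kind between, was in 0 of the 8 windows and in 3.44% of all windows. A match is a run of letters and not a site shown to be bound, and a window without one says nothing of the factors. The bases upstream of a transcript start are printed 5′ to 3′ along the gene, with the match in capitals. They are those of 3 of the 4 genes with the largest rises and of the Cd160 start with the match. The printed Tigit bases lie inside the annotated span of Tigit, after its 5′ end.
Pdcd1, chr1:94052554-94052803, minus strand: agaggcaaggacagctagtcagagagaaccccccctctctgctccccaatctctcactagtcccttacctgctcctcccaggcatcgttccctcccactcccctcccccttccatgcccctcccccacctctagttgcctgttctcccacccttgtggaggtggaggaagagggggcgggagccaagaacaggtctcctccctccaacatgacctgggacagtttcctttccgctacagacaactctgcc
Tigit, chr16:43664185-43664434, minus strand: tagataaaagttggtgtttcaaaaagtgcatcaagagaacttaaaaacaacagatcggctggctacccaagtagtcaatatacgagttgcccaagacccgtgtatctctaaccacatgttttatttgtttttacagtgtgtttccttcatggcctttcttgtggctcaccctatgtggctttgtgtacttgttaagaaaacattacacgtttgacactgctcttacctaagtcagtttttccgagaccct
Ctla4, chr1:60908775-60909024, plus strand: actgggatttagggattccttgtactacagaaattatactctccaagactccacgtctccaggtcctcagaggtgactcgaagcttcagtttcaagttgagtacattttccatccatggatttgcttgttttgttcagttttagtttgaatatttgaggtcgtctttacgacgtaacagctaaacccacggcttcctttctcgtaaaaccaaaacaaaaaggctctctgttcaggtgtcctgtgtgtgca
Cd160, second start, chr3:96814522-96814771, minus strand: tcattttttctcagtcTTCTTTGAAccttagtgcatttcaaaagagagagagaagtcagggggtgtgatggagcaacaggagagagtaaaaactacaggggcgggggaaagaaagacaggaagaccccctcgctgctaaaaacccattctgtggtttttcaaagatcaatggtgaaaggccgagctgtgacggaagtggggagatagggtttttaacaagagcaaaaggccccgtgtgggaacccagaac

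Each library held between 15742523 and 16182453 expected counts, which left 12887 genes with enough counts for a test. Between the groups, edgeR's quasi-likelihood test called 2745 genes higher and 2278 lower at an adjusted p of 0.05. The split moved with the scaling of the libraries, to 2362 higher and 2979 lower with upper-quartile factors, 2363 and 2975 with library size alone, and 1423 and 2989 when scaled to the summed counts of T cell identity genes, where the median over all genes stood at a log2 fold change of -0.15. The labelled cell type was present, with Cd8a at 408 and 349 FPKM in AAV-IL-27 libraries and at 321 and 335 FPKM in AAV-ctrl libraries, and Cd4 at 8.21 to 10.1 FPKM over the 4 libraries. B cell transcripts were present as well, with Cd79a at 251 and 370 FPKM in AAV-IL-27 libraries and at 630 and 530 FPKM in AAV-ctrl libraries. In such bulk RNA, more cells of a type and more RNA per cell cannot be told apart.

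All 8 genes differed between the groups, 7 higher and 1 lower in AAV-IL-27, where 39.0% of all tested genes were called in either direction, 21.3% higher and 17.7% lower. Pdcd1, Tigit, Lag3 and Ctla4 stood at 6.74 to 12.3 times their AAV-ctrl level, Havcr2, Cd274 and Cd160 at 1.99 to 2.11 times, and Btla at 0.778 times. The median log2 fold change of the 8 genes was 1.92, beside -0.00528 over all tested genes. The groups did not overlap in any of the 8, as was so for 71.5% of all tested genes. The call and the direction of each of the 8 genes were the same under all 12 other settings tried, DESeq2 and the omission of any 1 library among them.

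**Figure D1:**
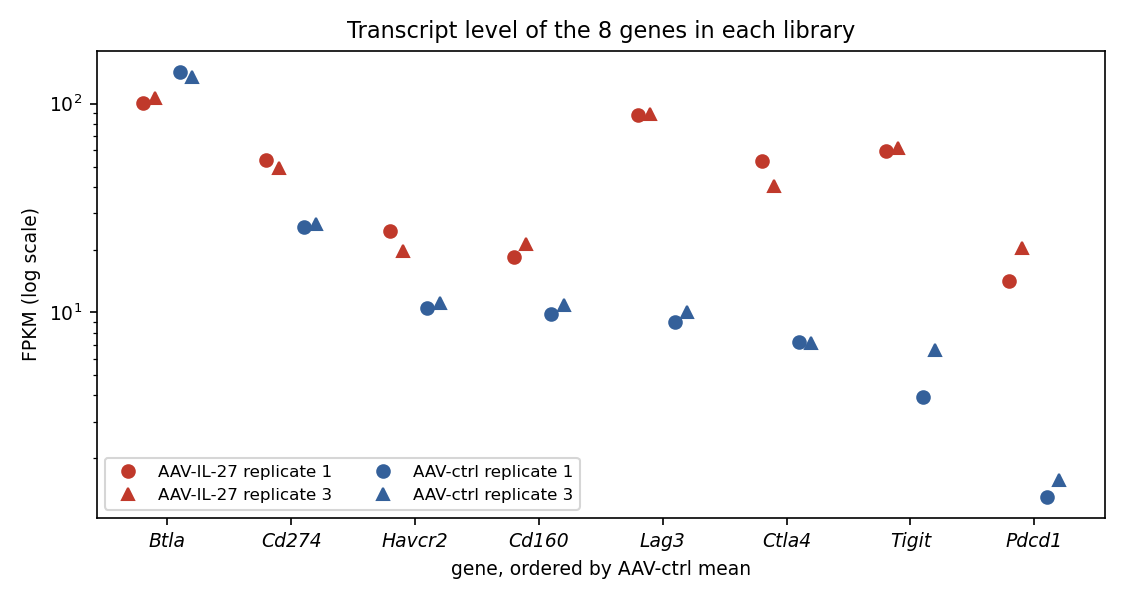
FPKM of each gene in the 4 libraries on a log scale, with genes ordered by their AAV-ctrl mean, AAV-IL-27 in red and AAV-ctrl in blue, circles for replicate 1 and triangles for replicate 3. Btla leads in all 4 libraries and is the gene whose red points lie below the blue ones, and Pdcd1 has the lowest AAV-ctrl values, 1.31 and 1.58 FPKM.

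Levels were compared between genes as FPKM, which divide by gene length. In AAV-ctrl the order was Btla, Cd274, Havcr2, Cd160, Lag3, Ctla4, Tigit and Pdcd1. Btla, at 138 ± 5.91 FPKM (SD, n = 2), stood above 96.9% of the tested genes, Cd274 at 26.1 ± 0.516 FPKM above 75.02%, and Pdcd1 at 1.45 ± 0.191 FPKM above 18.1%. Havcr2 and Cd160, and Cd160 and Lag3, had ranges that overlapped between the 2 AAV-ctrl libraries, while the other neighbours in the order did not overlap. The order was the same in either AAV-ctrl library alone and with CPM (counts scaled to library size), which do not divide by length. In AAV-IL-27 the order was Btla, Lag3, Tigit, Cd274, Ctla4, Havcr2, Cd160 and Pdcd1. There Cd274 overlapped with Ctla4, Havcr2 with Cd160, and Cd160 with Pdcd1. By FPKM, Lag3 was the second most abundant of the 8 in AAV-IL-27 and the fifth in AAV-ctrl. Tigit was the third in AAV-IL-27 and the seventh in AAV-ctrl. Unlike the AAV-ctrl order, the AAV-IL-27 order depended on the division by length. In expected counts of the AAV-IL-27 libraries, Cd274 (3170 and 2933) stood above Lag3 (2852 and 2911). Likewise, Ctla4 (1642 and 1256) stood above Tigit (915 and 954).

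Pdcd1 encodes PD-1, the receptor for PD-L1 and PD-L2. It had 14.1 and 20.3 FPKM in AAV-IL-27 libraries, from 437 and 633 expected counts, against 1.31 and 1.58 FPKM in AAV-ctrl libraries, from 40 and 48 expected counts. Both AAV-IL-27 libraries lay far above both controls. Its log2 fold change was 3.62 ± 0.24 (SE, edgeR adjusted p = 0.000136), and 66 of the 12887 tested genes had a larger rise. On log2(FPKM + 1) values limma gave 2.88, since the pseudocount weighs on a gene this low in the controls. Pdcd1 stood above 63.2% of tested genes in AAV-IL-27 and above 18.1% in AAV-ctrl. Its mean was the lowest of the 8 in both groups, but in AAV-IL-27 replicate 3 Havcr2 was lower, at 19.6 FPKM.

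Cd274, the gene of PD-L1, had 53.7 and 49.4 FPKM in AAV-IL-27 libraries and 25.7 and 26.5 FPKM in AAV-ctrl libraries. The values within each group lay close together, and the log2 fold change was 1.03 ± 0.056 (SE, edgeR adjusted p = 1.54e-06). The other PD-1 ligand, Pdcd1lg2 (PD-L2), had 2.78 and 3.52 FPKM in AAV-IL-27 libraries and 4.05 and 3.90 FPKM in AAV-ctrl libraries. It did not pass the test (log2 fold change -0.28 ± 0.14, adjusted p = 0.135), though it was called lower without AAV-IL-27 replicate 3 (adjusted p = 0.0182) and under scaling to T cell identity genes (adjusted p = 0.0471). Pdcd1lg2 begins 22824 bases from Cd274 on chromosome 19. Jak2, a kinase of cytokine receptors that lies 49012 bases away on the other side, was higher by 0.31 ± 0.065 (adjusted p = 0.00595), a call lost on leaving out AAV-ctrl replicate 1 (adjusted p = 0.0886) and under scaling to T cell identity genes (adjusted p = 0.293). Plgrkt overlaps the annotated span of Cd274. The labels do not say if reads were counted by strand, and overlap of their exons was not checked. It is therefore not known if the counts of Plgrkt and Cd274 could share reads. Plgrkt stood at -0.12 ± 0.054 (adjusted p = 0.104), and was called lower with upper-quartile factors (adjusted p = 0.0306) and with library size alone (adjusted p = 0.0301). The ratio of Pdcd1 to Cd274 FPKM within a library was 0.262 and 0.411 in AAV-IL-27 and 0.0509 and 0.0597 in AAV-ctrl, so the receptor stood higher relative to its ligand in both AAV-IL-27 libraries.

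Ctla4 encodes the receptor that competes with CD28 for CD80 and CD86, and regulatory T cells are known to carry it throughout. It had 53.0 and 40.5 FPKM in AAV-IL-27 libraries against 7.18 and 7.11 FPKM in AAV-ctrl libraries. The log2 fold change was 2.75 ± 0.16 (SE, edgeR adjusted p = 8.77e-05). Its neighbour Icos, an activating receptor of the same family 44941 bases away on chromosome 1, had 19.5 and 19.6 FPKM in AAV-IL-27 libraries and 9.92 and 10.1 FPKM in AAV-ctrl libraries (log2 fold change 1.01 ± 0.064, adjusted p = 3.61e-06). Cd28 rose less, by 0.43 ± 0.048 (adjusted p = 0.000145), a call lost under scaling to T cell identity genes (adjusted p = 0.0527). The ratio of Ctla4 to Cd28 FPKM was 1.37 and 1.07 in AAV-IL-27 libraries and 0.241 and 0.243 in AAV-ctrl libraries, above and below equal amounts. The ligand genes did not pass, Cd80 at 0.27 ± 0.16 (adjusted p = 0.217) and Cd86 at 0.14 ± 0.10 (adjusted p = 0.319). Cd86 was called higher without AAV-IL-27 replicate 3 (adjusted p = 0.0427) and stood at -0.02 under scaling to T cell identity genes.

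Foxp3, the defining transcription factor of regulatory T cells, was low in all 4 libraries. It had 0.930 and 1.22 FPKM in AAV-IL-27 libraries and 1.84 and 1.57 FPKM in AAV-ctrl libraries (log2 fold change -0.62 ± 0.21, edgeR adjusted p = 0.0405), and it did not pass by DESeq2 (adjusted p = 0.188) or without AAV-IL-27 replicate 1 (adjusted p = 0.147), AAV-ctrl replicate 1 (adjusted p = 0.254) or AAV-ctrl replicate 3 (adjusted p = 0.112). By limma on log2(FPKM + 0.1) its adjusted p was 0.0542. Of 8 markers of CD4+ and regulatory T cells, 1 rose (Ikzf2, with an adjusted p of 0.0637 on leaving out AAV-ctrl replicate 1), 5 fell and 2 did not pass, and their summed level was 27.1 and 32.7 FPKM in AAV-IL-27 libraries and 34.2 and 32.6 FPKM in AAV-ctrl libraries, with no marker at 0 in all 4 libraries. By DESeq2 1 rose and 1 fell. Over all tested genes, edgeR called 21.3% higher and 17.7% lower. The ratio of Ctla4 to Foxp3 FPKM was 57.0 and 33.2 in AAV-IL-27 libraries and 3.90 and 4.53 in AAV-ctrl libraries.

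Tigit encodes a receptor for CD155 (Pvr) that opposes CD226. It had 59.4 and 61.6 FPKM in AAV-IL-27 libraries against 3.93 and 6.60 FPKM in AAV-ctrl libraries, from 58.9 and 98.8 expected counts in the controls. The AAV-IL-27 libraries lay together, and the AAV-ctrl libraries differed from each other by more than counting error. The log2 fold change was 3.58 ± 0.17 (SE, edgeR adjusted p = 1.30e-05), and 3.25 on leaving out AAV-ctrl replicate 1 and 4.00 on leaving out replicate 3. The receptors that share its ligand went the other way. Cd226 had 22.3 and 23.4 FPKM in AAV-IL-27 libraries and 35.2 and 41.4 FPKM in AAV-ctrl libraries (-0.80 ± 0.061, adjusted p = 1.30e-05), and Cd96 had 50.9 and 41.6 FPKM in AAV-IL-27 libraries and 75.1 and 75.8 FPKM in AAV-ctrl libraries (-0.65 ± 0.084, adjusted p = 0.000953). The ratio of Tigit to Cd226 was 2.67 and 2.63 in AAV-IL-27 libraries and 0.112 and 0.160 in AAV-ctrl libraries. Pvr itself, at 8.11 and 8.60 FPKM in AAV-IL-27 libraries and 7.61 and 7.86 FPKM in AAV-ctrl libraries, did not pass (0.16 ± 0.083, adjusted p = 0.153). Nectin2 and Nectin3 had too few counts to be tested. The annotated span of Tigit overlaps that of Zbtb20, a zinc finger gene. It was not checked if their exons overlap, so it is not known if their counts could share reads. Zbtb20 was at -0.31 ± 0.072 (adjusted p = 0.00850), a call lost on leaving out AAV-ctrl replicate 3 (adjusted p = 0.104) and by limma on FPKM (adjusted p = 0.0642 and 0.0641 with pseudocounts of 1 and 0.1).

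**Figure D2:**
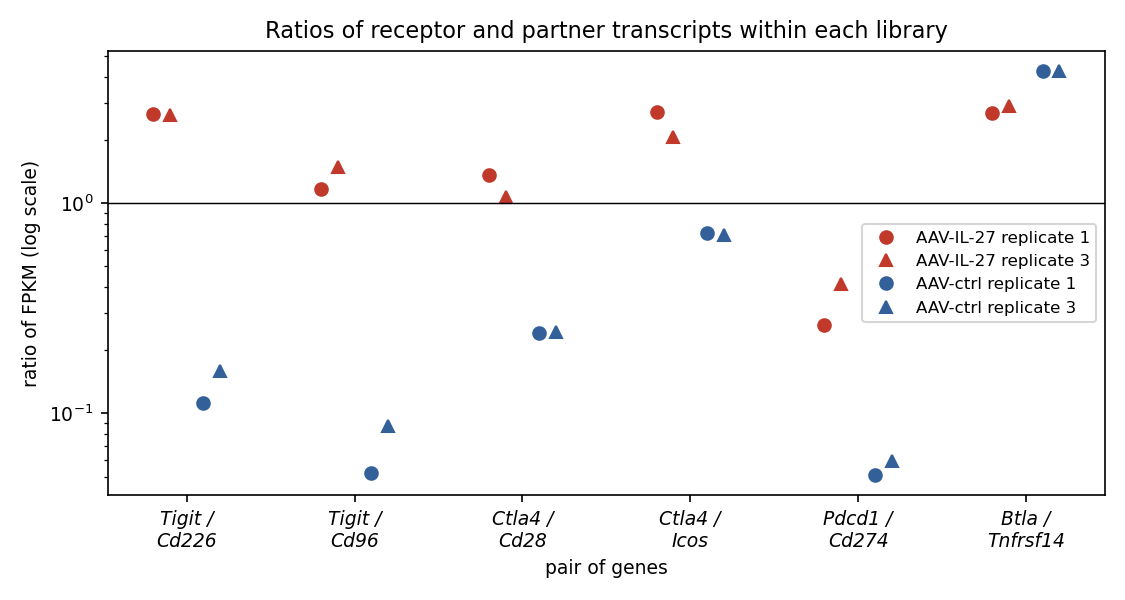
Ratio of the FPKM of 2 genes within each library on a log scale, for 6 pairs of a receptor and a related receptor, ligand or counter-receptor, AAV-IL-27 in red and AAV-ctrl in blue, circles for replicate 1 and triangles for replicate 3, with a line at equal amounts. For Tigit over Cd226, Tigit over Cd96, Ctla4 over Cd28 and Ctla4 over Icos the AAV-IL-27 points lie above the line and the AAV-ctrl points below it, while Btla over Tnfrsf14 is lower in AAV-IL-27.

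Lag3 encodes a CD4-related receptor that binds MHC class II. It had 88.3 and 89.7 FPKM in AAV-IL-27 libraries and 8.95 and 10.04 FPKM in AAV-ctrl libraries. The AAV-IL-27 libraries nearly coincided, far above both controls. The log2 fold change was 3.28 ± 0.066 (SE, edgeR adjusted p = 4.47e-09). Cd4, which lies 16112 bases from it on chromosome 6, was at -0.03 ± 0.099 (adjusted p = 0.853). Ptms, the gene of parathymosin, lies 1241 bases from Lag3 and rose by 1.18 ± 0.05 (adjusted p = 3.75e-07). Of the ligands, the MHC class II gene H2-Ab1 had 996 and 947 FPKM in AAV-IL-27 libraries and 1097 and 1022 FPKM in AAV-ctrl libraries and did not pass (-0.07 ± 0.05, adjusted p = 0.274). Lgals3 (galectin-3) had 46.0 and 52.6 FPKM in AAV-IL-27 libraries and 15.5 and 17.9 FPKM in AAV-ctrl libraries (1.61 ± 0.094, adjusted p = 3.37e-06). Clec4g, at 0.310 and 0.170 FPKM in AAV-IL-27 libraries and 0.610 and 0.710 FPKM in AAV-ctrl libraries, was called lower (-1.36 ± 0.41, adjusted p = 0.0266) but not by DESeq2 (adjusted p = 0.197) nor without AAV-IL-27 replicate 3 (adjusted p = 0.113), AAV-ctrl replicate 1 (adjusted p = 0.0886) or AAV-ctrl replicate 3 (adjusted p = 0.174). Fgl1 was listed at 0 FPKM in 3 of the 4 libraries and was not tested.

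Havcr2 encodes TIM-3, which is also found on macrophages and dendritic cells. It had 24.5 and 19.6 FPKM in AAV-IL-27 libraries and 10.5 and 11.1 FPKM in AAV-ctrl libraries (log2 fold change 1.08 ± 0.11, SE, edgeR adjusted p = 0.000243). The AAV-IL-27 libraries lay further apart than the AAV-ctrl libraries, and both lay above them. The TIM-3 ligands Lgals9 (galectin-9, 0.13 ± 0.067, adjusted p = 0.167), Hmgb1 (0.13 ± 0.051, adjusted p = 0.0672) and Ceacam1 (-0.12 ± 0.20, adjusted p = 0.687) did not pass, nor did Bag6, which binds the tail of TIM-3 (-0.00123 ± 0.047, adjusted p = 0.985). Ceacam1 was called lower without AAV-IL-27 replicate 3 (adjusted p = 0.00322) and stood at 0.12 without AAV-IL-27 replicate 1. Hmgb1 was called higher without AAV-IL-27 replicate 1 (adjusted p = 0.0474). Lgals9 stood at -0.02 and Hmgb1 at -0.01 under scaling to T cell identity genes.

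Btla and Cd160, the 2 receptors for HVEM, moved in opposite directions. Btla had 101 and 106 FPKM in AAV-IL-27 libraries and 142 and 134 FPKM in AAV-ctrl libraries, and it fell by 0.36 ± 0.052 on the log2 scale (SE, edgeR adjusted p = 0.000671). Cd160 had 18.5 and 21.2 FPKM in AAV-IL-27 libraries and 9.87 and 10.8 FPKM in AAV-ctrl libraries, and it rose by 0.99 ± 0.089 (adjusted p = 3.96e-05). The ratio of Cd160 to Btla was 0.183 and 0.199 in AAV-IL-27 libraries and 0.0695 and 0.0810 in AAV-ctrl libraries, so Btla remained the more abundant of the pair in every library. HVEM itself, Tnfrsf14, was at 37.4 and 36.5 FPKM in AAV-IL-27 libraries and 33.4 and 31.4 FPKM in AAV-ctrl libraries (0.25 ± 0.062, adjusted p = 0.0119). That call was lost by DESeq2 (adjusted p = 0.0805), on leaving out AAV-ctrl replicate 1 (adjusted p = 0.0521) or 3 (adjusted p = 0.125), and under scaling to T cell identity genes (adjusted p = 0.569). Tnfsf14 (LIGHT), another HVEM ligand, did not pass (0.18 ± 0.14, adjusted p = 0.329). H2-T3, which encodes a nonclassical MHC class I molecule, was at 1.19 ± 0.47 (adjusted p = 0.0717) and was called higher by limma on log2(FPKM + 0.1) (adjusted p = 0.0455).

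**Figure D3:**
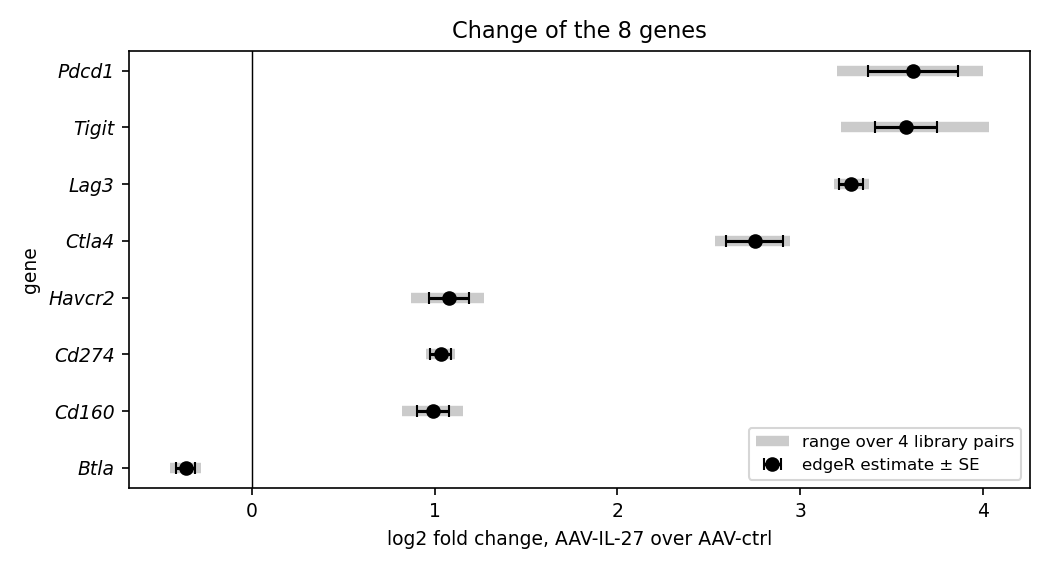
Log2 fold change of each gene, AAV-IL-27 over AAV-ctrl, with points and bars for the edgeR estimate and its SE and grey bands for the range over the 4 pairs of an AAV-IL-27 with an AAV-ctrl library. Pdcd1, Tigit and Lag3 have overlapping bands above 3, Ctla4 lies between 2.54 and 2.94, Havcr2, Cd274 and Cd160 overlap near 1, and Btla lies below 0.

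Ordered by change, the genes ran from Pdcd1 and Tigit through Lag3, Ctla4, Havcr2, Cd274 and Cd160 to Btla. The spread of each change was taken over the 4 pairs of an AAV-IL-27 with an AAV-ctrl library. Pdcd1 ranged from 3.20 to 4.00, Tigit from 3.23 to 4.03 and Lag3 from 3.19 to 3.37, and these overlapped. Ctla4 ranged from 2.54 to 2.94, below all 3 of these and above Havcr2, which ranged from 0.87 to 1.27. Havcr2, Cd274 (0.95 to 1.11) and Cd160 (0.82 to 1.16) overlapped with each other, and Btla ranged from -0.45 to -0.28. Of all tested genes, 0.605% had a rise at least as large as that of Lag3 and 5.65% one at least as large as that of Cd274. The order by change was not the order by AAV-ctrl level: the most abundant gene in AAV-ctrl, Btla, fell, and the least abundant, Pdcd1, had the largest fitted rise.

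**Figure D4:**
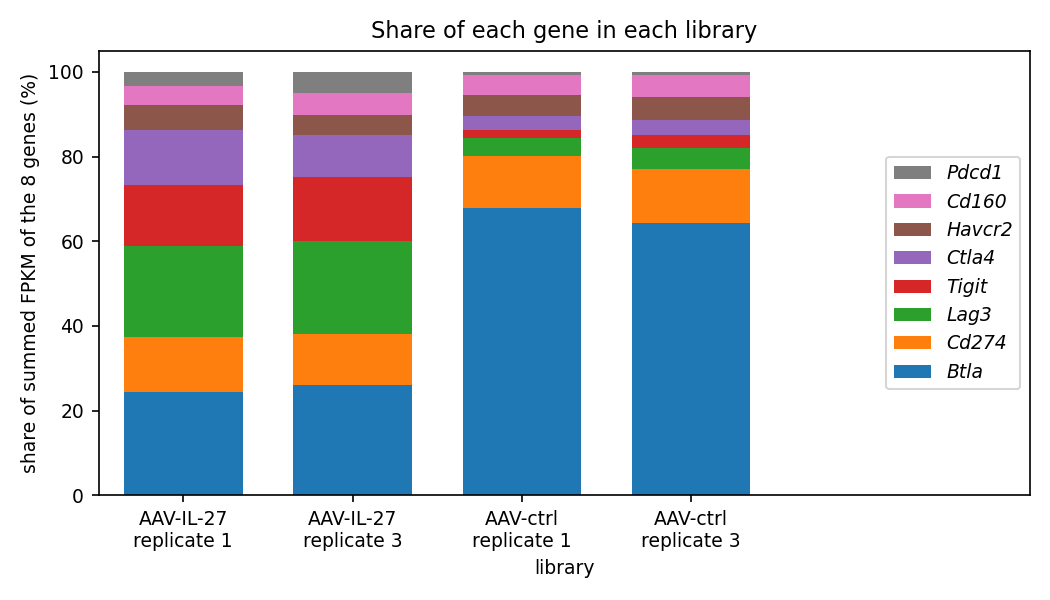
Stacked bars of the share that each gene had in the summed FPKM of the 8 genes, in percent, for each library. Btla makes up 24.5% and 26.0% in the AAV-IL-27 libraries, where the Lag3, Tigit and Ctla4 segments are wider, and 67.8% and 64.4% in the AAV-ctrl libraries.

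The makeup of the 8 transcripts differed between the groups. Their FPKM summed to 412 and 408 in AAV-IL-27 libraries and to 209 and 207 in AAV-ctrl libraries, and without Btla to 311 and 302 in AAV-IL-27 libraries and 67.5 and 73.7 in AAV-ctrl libraries. Btla took 24.5% and 26.0% of the sum in AAV-IL-27 libraries and 67.8% and 64.4% in AAV-ctrl libraries. Lag3 took 21.4% and 22.0% in AAV-IL-27 libraries and 4.27% and 4.84% in AAV-ctrl libraries, and Tigit 14.4% and 15.1% in AAV-IL-27 libraries and 1.88% and 3.18% in AAV-ctrl libraries. The 6 receptors other than Btla together made up 62.5% and 61.9% in AAV-IL-27 libraries and 19.9% and 22.8% in AAV-ctrl libraries. Cd274 kept to 13.0% and 12.1% in AAV-IL-27 libraries and 12.3% and 12.8% in AAV-ctrl libraries, with ranges that overlapped. These shares are ratios within a library and do not depend on how libraries were scaled. Per 100 FPKM of Cd3e, a chain of the T cell receptor complex, Lag3 stood at 42.3 and 46.5 FPKM in AAV-IL-27 libraries and 5.21 and 5.72 FPKM in AAV-ctrl libraries, and Btla at 48.4 and 55.0 FPKM in AAV-IL-27 libraries and 82.6 and 76.2 FPKM in AAV-ctrl libraries.

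The 2 AAV-IL-27 mice differed from each other in 6 of the 8 genes by more than counting error. Tested genes as a whole also exceeded counting error between these mice, with a chi-square over its degrees of freedom of 6.71. The share of all tested genes with such a difference was not counted, so the 6 cannot be called particular to this set. Intervals were exact (Clopper-Pearson, 95%) on the split of reads between the 2 libraries, and they cover counting error only. Replicate 3 relative to replicate 1 stood at a log2 ratio of 0.53 for Pdcd1 (0.35 to 0.71), 0.20 for Cd160 (0.056 to 0.34) and 0.080 for Btla (0.026 to 0.13). The log2 ratio was -0.39 for Ctla4 (-0.50 to -0.29), -0.32 for Havcr2 (-0.45 to -0.19) and -0.12 for Cd274 (-0.19 to -0.046). Lag3 (0.022) and Tigit (0.053) had intervals that included 0. Between the AAV-ctrl mice the interval excluded 0 for Tigit (0.75, 0.27 to 1.24) and Btla (-0.088, -0.14 to -0.040). The receptors thus did not vary together between the AAV-IL-27 mice, since Pdcd1 was higher and Ctla4 and Havcr2 lower in replicate 3.

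For each gene, the genes with the most similar pattern over the 4 libraries were found by the root mean square difference of centred log2 CPM, leaving out genes whose mean log2 CPM was under 2. Pdcd1, Lag3 and Tigit were among the nearest to each other: Lag3 was the third nearest to Pdcd1 (0.226), Pdcd1 the second and Tigit the third nearest to Lag3 (0.226 and 0.258), and Pdcd1 and Lag3 the nearest to Tigit (0.239 and 0.258). The nearest to Pdcd1 was Tox2 (0.196), a transcription factor of the TOX family with 6.33 and 8.60 FPKM in AAV-IL-27 libraries and 0.400 and 0.440 FPKM in AAV-ctrl libraries. The second nearest to Pdcd1 was Mmp9 (0.204), the gene of a gelatinase stored in neutrophil granules, with 2.47 and 4.78 FPKM in AAV-IL-27 libraries and 0.30 and 0.38 FPKM in AAV-ctrl libraries. The nearest to Lag3 was Gbp10 (0.164), an interferon-inducible GTPase with near-identical relatives, whose values are uncertain where counting could split reads among them. Ctla4 was nearest to Smpdl3b (0.0601), Havcr2 to Il10ra (0.0330), which encodes a chain of the interleukin-10 receptor, and Cd160 to Batf (0.0413), a transcription factor of activated T cells. Cd274 was nearest to Prf1 (0.0182), the gene of perforin, and Btla to Rhof (0.0117). Small distances are easier to reach for genes with small changes, and 4 libraries in 2 groups let many genes look alike.

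Markers of other cells moved between the groups too. Over all tested genes, edgeR called 21.3% higher and 17.7% lower. Of 12 neutrophil genes 11 were higher by edgeR and all 12 by DESeq2, and their summed level was 1037 and 1701 FPKM in AAV-IL-27 libraries and 32.0 and 22.2 FPKM in AAV-ctrl libraries, with none at 0 in all 4 libraries. Neutrophils can carry PD-L1. B cells carry BTLA. Of 10 B cell genes, 4 were lower by edgeR and 0 higher (6 lower and 0 higher at an unadjusted p under 0.05, and 7 lower and 0 higher by DESeq2), and their sum was 936 and 1298 FPKM in AAV-IL-27 libraries and 2023 and 1778 FPKM in AAV-ctrl libraries. Natural killer cells can carry CD160, TIGIT, LAG-3 and TIM-3. Of 8 of their genes 6 were lower, among them Klra8 with a log2 fold change of -3.59 ± 0.17, Klrb1c with -2.89 ± 0.12 and Ncr1 with -2.56 ± 0.17. These 6 summed to 10.1 and 9.97 FPKM in AAV-IL-27 libraries and 60.8 and 58.5 FPKM in AAV-ctrl libraries, none at 0 in all 4 libraries. The other 2, Gzma and Prf1, which cytotoxic T cells also express, were higher and summed to 192 and 163 FPKM in AAV-IL-27 libraries and 103 and 93.5 FPKM in AAV-ctrl libraries. Of 10 monocyte and macrophage genes 4 were lower and 1 higher by edgeR, and 5 lower and 2 higher by DESeq2. Their sums were 158 and 211 FPKM in AAV-IL-27 libraries and 183 and 154 FPKM in AAV-ctrl libraries. Lyz2 was the largest part of each sum, with 89.7 and 143 FPKM in AAV-IL-27 libraries and 60.3 and 63.2 FPKM in AAV-ctrl libraries. It did not pass by edgeR (adjusted p = 0.132) and was called higher by DESeq2 (adjusted p = 0.0176). Of 8 dendritic cell genes 2 were lower and 1 higher by edgeR, and 2 lower and 4 higher by DESeq2. The MHC class II gene H2-Aa, which B cells also express, made up most of their sum, with 1157 and 1161 FPKM in AAV-IL-27 libraries and 1381 and 1355 FPKM in AAV-ctrl libraries. The other 7 summed to 178 and 135 FPKM in AAV-IL-27 libraries and 128 and 145 FPKM in AAV-ctrl libraries, ranges that overlapped. Among them, Siglech overlapped between the groups and Cd209a was lower. Itgax, Flt3, Xcr1, Zbtb46 and Clec9a were each higher in both AAV-IL-27 libraries than in both AAV-ctrl libraries. Groups that do not overlap, in either direction, were found for 71.5% of all tested genes. Of 4 tested erythroid genes 0 passed by edgeR, 0 at an unadjusted p under 0.05 and 0 by DESeq2. The part of these cells in the levels of the 8 genes was not tested.

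Of 15 T cell identity genes 9 were higher, 2 lower and 4 did not pass, with a median log2 fold change of 0.23. All 10 cell cycle genes were higher, with a median of 1.99 and sums of 464 and 472 FPKM in AAV-IL-27 libraries against 189 and 187 FPKM in AAV-ctrl libraries, and activated T cells are known to divide. Their part in the levels of the 8 genes was not tested either.

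**Figure D5:**
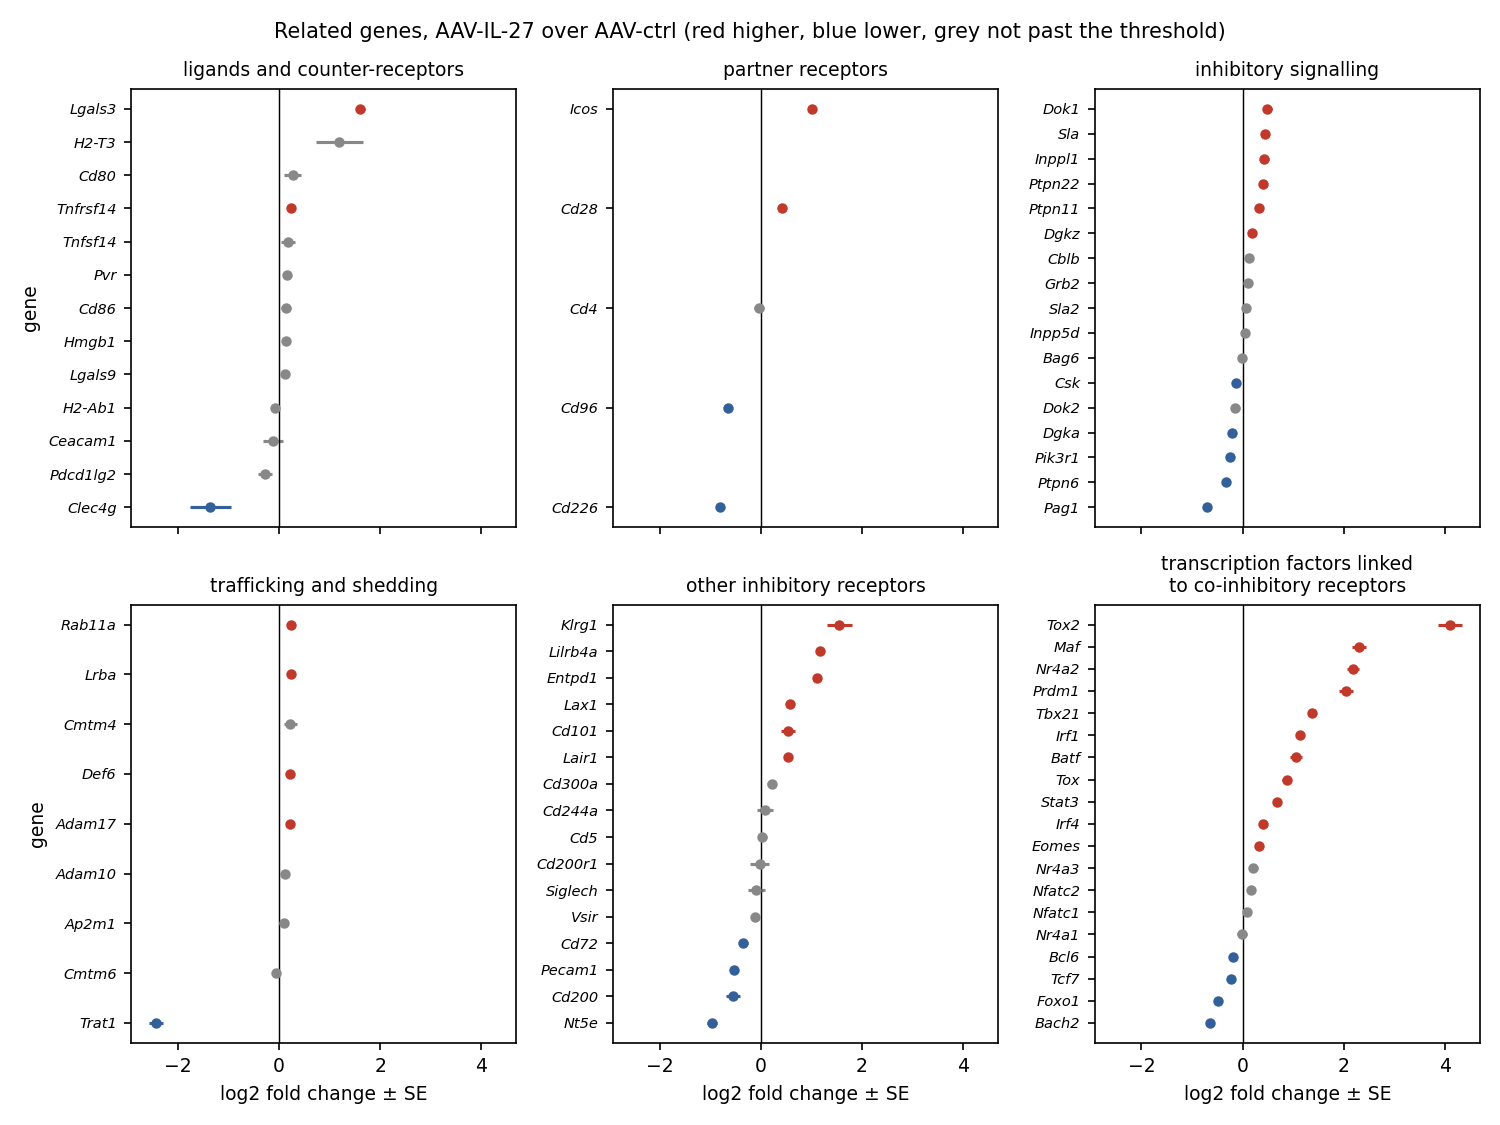
Log2 fold change ± SE (AAV-IL-27 over AAV-ctrl) of tested genes from 6 related lists, red for genes called higher, blue for lower and grey for those not past the threshold. Ligands lie mostly near 0 and grey, whereas transcription factors run from Tox2 at 4.10 to Bach2 at -0.64.

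Related lists were counted beside the shares over all tested genes, of which 21.3% were called higher and 17.7% lower. Of 13 ligands and counter-receptors tested, 2 were higher (Lgals3 and Tnfrsf14), 1 lower (Clec4g) and 10 did not pass. Their median was 0.14, beside -0.00528 over all tested genes. No list was tested as a set against those shares. Of 5 partner receptors, which share a ligand or a family with a member, Icos and Cd28 were higher, Cd226 and Cd96 lower and Cd4 did not pass. Of 17 genes of inhibitory signalling, 6 were higher and 5 lower, with a median of 0.08. Ptpn11, the gene of SHP-2, stood at 0.33 ± 0.05 (edgeR adjusted p = 0.000764), a call lost under scaling to T cell identity genes (adjusted p = 0.211), and Ptpn6, the gene of SHP-1, was at -0.34 ± 0.069 (adjusted p = 0.00584), a call lost on leaving out AAV-ctrl replicate 1 (adjusted p = 0.0714). The changes of largest size in that list were those of Pag1, an adaptor that brings the kinase Csk to the membrane (-0.71 ± 0.063), Dok1 (0.49 ± 0.09) and Sla, the gene of the adaptor SLAP (0.45 ± 0.048). Of 9 genes of trafficking and shedding 4 were higher by small amounts (0.21 to 0.24) and 1 lower, Trat1, the gene of the adaptor TRIM, with a log2 fold change of -2.43 ± 0.14 (adjusted p = 2.49e-06). The 4 were Adam17, which sheds surface proteins, Lrba, which protects CTLA-4 from degradation, Def6 and Rab11a, and all 4 lost the call under scaling to T cell identity genes.

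A list of other inhibitory receptors, adaptors and ectoenzymes held 16 tested genes. Of these, 6 were higher, 4 lower and 6 did not pass, with a median of 0.06. These counts and those of the transcription factors below stand beside 21.3% higher and 17.7% lower over all tested genes. Klrg1, an inhibitory receptor of effector cells, rose by 1.55 ± 0.24 (edgeR adjusted p = 0.00112), Lilrb4a by 1.17 ± 0.086 and Entpd1 (CD39, which degrades ATP) by 1.11 ± 0.074. Nt5e (CD73, the enzyme after CD39) had a log2 fold change of -0.96 ± 0.099, Cd200 of -0.54 ± 0.14 and Pecam1 of -0.54 ± 0.052. The call of Cd200 was lost on leaving out AAV-ctrl replicate 1 (adjusted p = 0.0988) or 3 (adjusted p = 0.105). Vsir (VISTA) did not pass (-0.11 ± 0.053, adjusted p = 0.117), though it was called lower with upper-quartile factors (adjusted p = 0.0291) and library size alone (adjusted p = 0.0320). Of 20 transcription factors linked to such receptors in T cells, 12 were higher, 4 lower and 4 did not pass, with a median of 0.54. Tox2 rose by 4.10 ± 0.24, Maf by 2.30 ± 0.14 and Nr4a2 by 2.18 ± 0.11, while Nr4a1 did not pass (-0.00937 ± 0.091, adjusted p = 0.951) and was called lower without AAV-IL-27 replicate 1 (adjusted p = 0.0450). Irf1, a factor of interferon responses, rose by 1.14 ± 0.051 (adjusted p = 5.04e-07). Bach2 and Foxo1, factors of resting T cells, had log2 fold changes of -0.64 ± 0.062 and -0.48 ± 0.046. Tcf7 (-0.23) and Bcl6 (-0.18) were also called lower by edgeR, but neither on leaving out AAV-ctrl replicate 1 or 3. There Tcf7 stood at -0.26 and -0.19, and Bcl6 at -0.24 and -0.13. The call of Bcl6 was also lost on leaving out AAV-IL-27 replicate 1 or 3, and by DESeq2 (adjusted p = 0.244).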

How the data were processed

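RNA sequencing of 4 libraries, 2 per group, was analysed from 1 table. The authors deposited expected counts per gene, of which 64.9% to 65.1% per library are whole, and a second value per gene and library that was taken as FPKM. That unit is named nowhere in the table and was inferred from the values, whose ratio to the counts differs by gene. The 4 columns of group averages were not used. Per the submitters' processing notes, the aligners HISAT2 2.0.4 and Bowtie2 2.2.5, the quantifier RSEM 1.2.12, the test package DESeq2 1.4.5 and the build GRCm38.p6 were involved, with no role stated. The labels do not say if reads were counted by strand.

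Counts were rounded, filtered with filterByExpr (12887 genes), scaled by TMM and compared with edgeR 4.0.16 in R 4.3.3 (quasi-likelihood, robust, two-sided, no block), with Benjamini-Hochberg adjustment over all tested genes and a threshold of 0.05. SE is the size of the log2 fold change over the square root of F. Alternatives used DESeq2 1.42.0, limma 3.58.1 on log2(FPKM + 1) and log2(FPKM + 0.1), other scalings, no filter, the replicate number as a block, and each library left out. P-values rest on the spread between single animals, 2 per group, and each gene's spread was estimated partly from that of all tested genes. The fit was tested on simulated data. The 8 genes and the lists were chosen with earlier results of these data known. Named genes were the members, all ligands, the 3 largest called changes of each other related list, genes a member's result turns on and the nearest patterns; neighbours, cell marker genes and some further list genes were picked with their values in view. Libraries of one group were not duplicates (chi-square over its degrees of freedom 6.71 for AAV-IL-27, 2.53 for AAV-ctrl). Positions and promoters come from RefSeq, GRCm38.p6, which matched 16921 of the 17039 genes by NCBI Gene number. Protein motifs were planned and are not analysed here. The values of a gene in the transcription factor list are not reported here, though the list's counts include it.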

Additional observations from a re-analysis of the deposited data

How the results depend on the processing

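The 8 genes kept their direction and call under all 12 alternatives, with log2 fold changes of 2.88 to 3.86 for Pdcd1, 3.25 to 4.00 for Tigit, 3.10 to 3.36 for Lag3, 2.54 to 2.93 for Ctla4, 0.91 to 1.22 for Havcr2, 0.88 to 1.09 for Cd274, 0.85 to 1.09 for Cd160 and -0.51 to -0.32 for Btla. The highest adjusted p was 0.0257, for Btla. Leaving out 1 library, Pdcd1 and Tigit each ranked 1 to 2 by change, Havcr2 and Cd160 5 to 7, and Cd274 6 to 7. By limma with a pseudocount of 1, Tigit ranked 1, Lag3 2 and Pdcd1 3, and with 0.1 Tigit ranked 1 and Pdcd1 2. Against 5023 genes called in all, DESeq2 called 3243, and edgeR 2558 on leaving out AAV-ctrl replicate 1 and 2685 on leaving out replicate 3. The small counts of related lists moved more, and the cause was not tested. Leaving out 1 library, 1 to 3 ligands were higher and 0 to 2 lower, 2 to 5 signalling genes lower, 0 to 4 trafficking genes higher, 2 to 5 other inhibitory receptors lower and 2 to 4 transcription factors lower. Scaled to the T cell identity genes, 1 ligand was higher and 2 lower, 1 partner receptor higher, 2 signalling genes higher and 0 trafficking genes higher. By DESeq2 1 ligand was higher, 0 lower and 2 trafficking genes higher, and by limma 1 trafficking gene was higher with either pseudocount. Samples of the same replicate number showed no shared shift over all genes (correlation of deviations -0.000711 over 12887 genes). That value cannot tell if the samples were handled in pairs, and the sample titles give the numbers alone. With the number as a replicate block in edgeR, 7 of the 8 genes were higher and 1 lower, as without it, and Foxp3 had an adjusted p of 0.0531. Depth limits Pdcd1 and Tigit most, with 40 to 98.8 expected counts in the AAV-ctrl libraries.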
